A study of Mus musculus with 31 samples.

Results

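The comparison was between the inner olfactory nerve layer (ONL) and the olfactory nerve of mouse embryos at E16.5, in days of embryonic development, and its members were the 4 inner ONL and the 4 olfactory nerve libraries of that age, 8 of the 31 RNA-seq libraries in the series. The 47729 genes in the count table were reduced to 17800 by an expression filter, and all of these were tested. Every animal carried the Sox10:H2BVenus BAC transgene, in which Sox10 regulatory sequences drive a nuclear yellow fluorescent protein, and the labels give no other allele or treatment. The native fluorescence guided laser microdissection of 8-µm sections, pieces from several sections were pooled, and RNA was amplified into libraries. The inner ONL was the Sox10-positive tissue next to the olfactory bulb, and the olfactory nerve pieces came from the lamina propria beneath the olfactory epithelium. Outer ONL and trigeminal nerve libraries of the same age shared the fit, and the outer ONL is given as a reference level only. No morphological border separates inner from outer ONL, and the pieces also took in neighbouring tissue. The study found olfactory bulb tissue represented in its inner ONL data. It therefore used the outer ONL when comparing with nerve at E16.5 to find genes of OEC subpopulations and Schwann cells. The replicates of a tissue were separate embryos. The study took nerve and ONL pieces from the same sections, so the tissues may share embryos. Whether equally numbered inner ONL and nerve libraries shared an embryo is not given in the sources used here.

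The glia of the olfactory nerve are olfactory ensheathing cells (OECs), which arise from the neural crest and wrap the axons of olfactory receptor neurons from the mucosa to the bulb. In the lamina propria they enclose small axon bundles among fibroblasts, vessels, glands and cartilage, whereas in the ONL they form a sheet over the bulb through which the axons sort towards glomeruli. OECs express Sox10, a transcription factor of neural crest glia, and share many genes with Schwann cells, the glia of other peripheral nerves.

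The inner ONL libraries held between 13379107 and 16800784 counts and the olfactory nerve libraries between 14914541 and 16291260. Levels are given as CPM (counts scaled to a common library total) after TMM scaling, differences as log2 fold changes of inner ONL over olfactory nerve with their standard error (SE), and a gene was taken to differ when edgeR's quasi-likelihood test gave a p that stayed under 0.05 after Benjamini-Hochberg adjustment. CPM is not divided by gene length, so levels were compared between tissues and not between genes. Of the 17800 genes, 7181 differed (40.3%), 3408 of them higher in the inner ONL (19.1%) and 3773 lower (21.2%). Counts of list members below are to be read against these shares. The median log2 difference of all genes tested was -0.02, against 1.22 for the higher and -1.79 for the lower genes, and 591 higher and 1037 lower genes differed by 3 or more on the log2 scale. In bulk tissue, fewer cells of a type and less RNA per cell cannot be told apart. Olfactory nerve replicate 2 lay at the end of its group's range for several list sums. It had the highest summed level of 18 cartilage genes (8684 CPM against 1903 to 3953 in the other 3) and of the pan-OEC genes described below (4078 against 2708 to 2789), and the lowest of 22 olfactory epithelium genes (713 against 937.4 to 1590). Of these sums, only that of the pan-OEC genes was singled out by the rule for a library far from its group, given below. Summed levels take in all genes of a list, also those that did not pass the filter. When any 1 of the 8 libraries was left out, between 6365 and 6698 genes differed, and no gene that differed in the full comparison changed sign.

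Genes of ONL OECs were higher on the bulb side. Of the 9 genes the study used for these cells, 7 were higher in the inner ONL, against 19.1% of all genes tested, and none was lower. The same 7 did not overlap between groups, which held in this direction for 18.5% of all genes, and the median log2 difference of the 9 was 4.14. The study used Npy, Prss56 and Frzb as markers known before it and found the others as candidates in comparisons of its E16.5 libraries. It then assigned the genes to cell types by in situ hybridization on sections, which does not use these counts. For the others the direction of the counts here is not independent evidence. Npy, the gene of neuropeptide Y (chr6:49822710-49829507, plus strand), was at 1686, 1019, 2027 and 1603 CPM in the inner ONL libraries and at 56.6, 25.7, 31.9 and 34.1 CPM in the nerve libraries. The groups were far apart, by a log2 of 5.42 ± 0.35 (SE, n = 4 per group, edgeR adjusted p = 5.86e-09). Prss56, a serine protease gene (chr1:87183313-87188405, plus strand), was at 897, 343, 695 and 642 CPM in the inner ONL and at 29.7, 3.21, 14.3 and 12.9 CPM in the nerve, with nerve replicate 2 the lowest, and the difference was 5.42 ± 0.65 (edgeR adjusted p = 3.56e-06). Ptgds, which makes prostaglandin D2, rose from 2.74 ± 2.6 CPM (mean ± SD) in the nerve to 157 ± 36.1 CPM in the inner ONL. Hes5, a transcriptional repressor downstream of Notch, was at 38.4, 22.8, 59.7 and 49.9 CPM against 3.08, 3.09, 1.74 and 1.79 CPM.

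Vtn, which encodes the adhesion glycoprotein vitronectin and is also a pericyte gene, was at 1636, 1291, 1844 and 1389 CPM in the inner ONL and at 1.87, 136, 2 and 26.3 CPM in the nerve. Nerve replicate 2 carried most of the nerve signal, and the log2 difference was 5.21 ± 0.93. The secreted Wnt antagonist Frzb (598 ± 104 against 89.1 ± 20.8 CPM) and Lypd6, a membrane-anchored modulator of Wnt receptors (338, 261, 273 and 356 against 65.8, 33.1, 69.7 and 52.7 CPM), were higher by 2.75 ± 0.21 and 2.47 ± 0.23. The other 2 genes of the list did not pass the test. Nkd2, an intracellular Wnt inhibitor, was at 601, 264, 389 and 386 CPM against 287, 256, 327 and 308 CPM, a difference of 0.48 ± 0.19 (edgeR adjusted p = 0.0566) that passed without inner replicate 2 (0.64). Wif1, a secreted Wnt inhibitor, was at 66.4 ± 10.3 CPM against 42.4 ± 23.2 CPM and passed without nerve replicate 2 (0.96). From its in situ hybridization the study proposes that mesenchyme near the olfactory epithelium likely accounts for the nerve levels of Wif1 and Nkd2. That was not tested here.

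**Figure D1:**
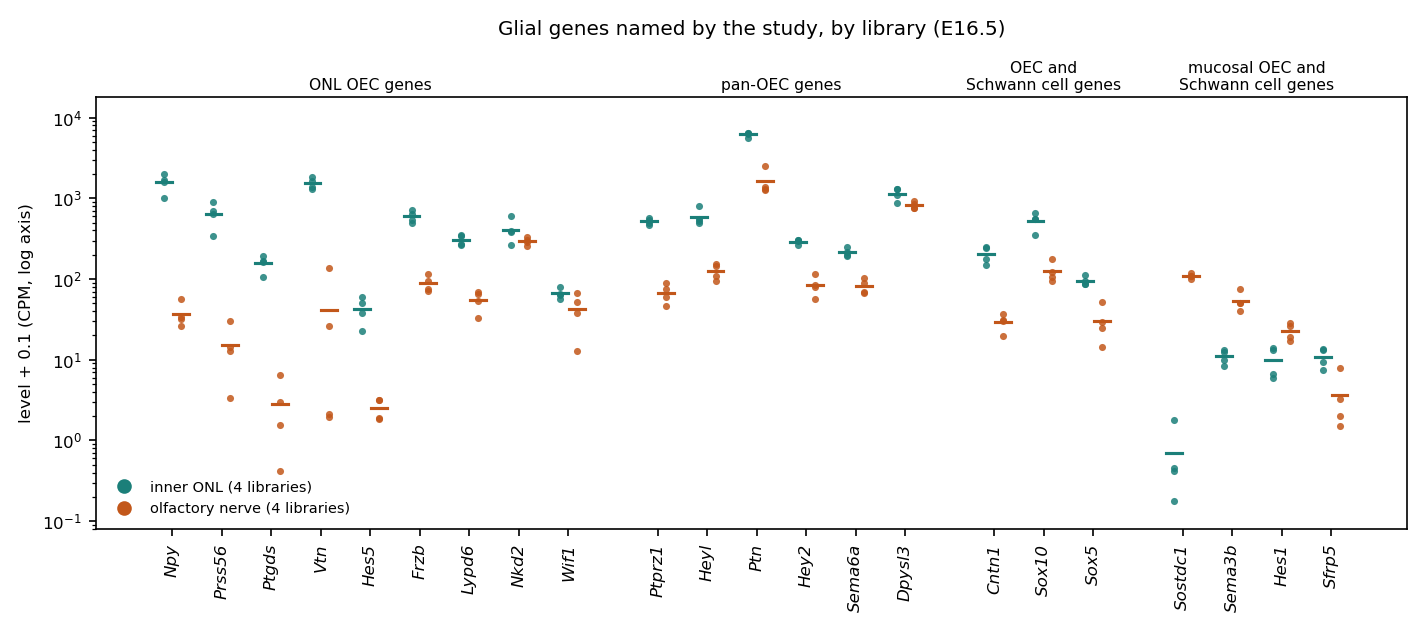
CPM in each of the 4 inner ONL and 4 olfactory nerve libraries, plus 0.1 on a log axis, for those genes of the study's 4 OEC and Schwann cell lists that the text describes, with 1 point per library and a bar at each group's mean. Npy, Prss56, Ptgds, Hes5 and Vtn lie above their nerve values in every inner ONL library, and Sostdc1 lies below.

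Genes shared by all OECs were also higher in the inner ONL. Of 9 pan-OEC genes 7 were higher, with a median log2 difference of 1.93, and of 7 genes shared by OECs and Schwann cells all 7 were higher, with a median of 2.25. Apart from known markers such as Sox10, the study drew the candidates for both lists from comparisons of its E16.5 libraries. It assigned them to cell types by in situ hybridization. Sox10 itself was at 561, 354, 649.9 and 549 CPM in the inner ONL and at 95.2, 176, 121 and 105 CPM in the nerve, a difference of 2.09 ± 0.20 (edgeR adjusted p = 3.81e-07). Sox10 RNA was thus a larger share of the RNA of every inner ONL library. Ptprz1, a receptor tyrosine phosphatase, was higher by 2.94 ± 0.17, and Ptn, which encodes its ligand pleiotrophin, rose from 1621 ± 599 to 6182 ± 440.2 CPM. In the nerve Ptn was at 1391, 2516, 1269 and 1307 CPM, highest in replicate 2. Dpysl3, a cytoskeletal regulator, was at 1141 ± 203 CPM against 824 ± 85.9 CPM and did not pass the test, though it did without inner replicate 4 (0.58).

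Because Sox10 differed, the comparison was repeated with each gene set against Sox10 in the same library. On that scale 16152 of 17799 genes differed (90.7%), 514 of them higher in the inner ONL (2.89%) and 15638 lower (87.9%), and the median log2 difference of all genes was -2.11, so the values are read against that median. Npy rose more than Sox10 did, by 3.17 ± 0.38 (edgeR adjusted p = 1.77e-07), as did Ptgds by 3.83 ± 0.45, Prss56 by 3.08 ± 0.65, Vtn by 3.48 ± 0.73 and Hes5 by 1.97 ± 0.36. Ptprz1, at 0.93 ± 0.25, and Frzb, at 0.69 ± 0.26 (edgeR adjusted p = 0.0179), were higher by less. Lypd6, at 0.30 ± 0.33, did not pass the test (edgeR adjusted p = 0.388), and Nkd2 was lower on this scale, at -1.70 ± 0.26.

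Genes of mucosal OECs and Schwann cells were lower on the bulb side, apart from Sfrp5. Of the 5 genes that passed the filter 4 were lower and 1 higher, the 4 without overlap between groups (19.7% of all genes tested lay lower without overlap). Here too the study drew candidates from comparisons of its E16.5 libraries and assigned them to cell types by in situ hybridization. Sostdc1, a secreted antagonist of BMP and Wnt signals (chr12:36314139-36318452, plus strand), was at 0.318, 1.69, 0.0756 and 0.351 CPM in the inner ONL and at 118, 110.2, 108 and 100.5 CPM in the nerve. The difference was -7.51 ± 0.63, and the outer ONL was at 8.55 ± 5.62 CPM (n = 4). Sema3b, a secreted semaphorin, fell by 2.29 ± 0.22 on the log2 scale, and Hes1, a Notch-responsive repressor, by 1.20 ± 0.32. Sfrp5, a secreted Wnt antagonist, was higher in the inner ONL at 10.8 ± 2.97 CPM against 3.57 ± 2.88 CPM, and the groups overlapped.

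General glial genes did not move as a block. Among 19 tested, 6 were higher and 7 lower, with a median log2 difference of 0.31. Fabp7, a fatty acid-binding protein of immature glia, was at 15460, 16244, 20490 and 15630 CPM in the inner ONL and at 1465, 2680, 1100.5 and 1063 CPM in the nerve, and inner replicate 3 was the highest. S100b, a calcium-binding protein of mature glia, went the other way, from 82.2, 145, 78.7 and 73.6 CPM in the nerve to 25.3, 33.7, 30.7 and 36.4 CPM in the inner ONL. Gfra3, the receptor for artemin, fell by 4.43 ± 0.62, and the low-affinity neurotrophin receptor gene Ngfr by 1.20 ± 0.23. Erbb3, the neuregulin receptor of neural crest glia, was higher by 0.62 ± 0.20 with overlapping groups, and did not pass without nerve replicate 1 or 4 or inner replicate 1 or 4 (0.52 to 0.55). Of 19 myelin genes 5 were higher and 8 lower. Among them the peripheral myelin gene Pmp22 fell from 327 ± 76.9 to 103 ± 6.98 CPM, Mbp from 49.1 ± 9.7 to 19.9 ± 5.78 CPM and Mal from 109 ± 22.4 to 31.9 ± 6.69 CPM, while the gap junction gene Gjb1 rose to 12.5 ± 3.03 CPM from 0.269 ± 0.235 CPM. Ugt8a (2.23 ± 0.27), Drp2 (1.32 ± 0.32) and Pou3f1 (4.47 ± 0.87) were also higher.

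Bulb neuron genes were also higher in the inner ONL. The study reports bulb tissue in its inner ONL data, as given above, and which cells carried these genes was not tested here. Of 20 pan-neuronal genes 17 were higher in the inner ONL and none was lower, with a median log2 difference of 2.44, and 14 of 19 genes of bulb projection neurons were higher, 3 lower, with a median of 4.16. Tbr1, a transcription factor of mitral and tufted cells, was at 14.9, 41.9, 23.8 and 19.3 CPM in the inner ONL and at 0.242, 0.909, 0 and 0.67 CPM in the nerve. Slc17a7, the vesicular glutamate transporter VGLUT1, rose by 5.66 ± 0.85, and Nts, the gene of neurotensin, by 5.25 ± 1.04, with 2.36, 35.4, 1.61 and 6.92 CPM in the nerve, highest in replicate 2. Of 18 genes of inhibitory bulb neurons 11 were higher, and Dlx5 and Dlx6 were lower. Dlx5 did not pass without nerve replicate 1 or 4 or inner replicate 2, 3 or 4 (-0.95 to -0.80), nor Dlx6 without nerve replicate 2 or inner replicate 3 or 4 (-1.84 to -1.67). Among the higher genes Th, which makes the dopamine precursor, was at 99.2, 95, 104 and 92.2 CPM against 0.423, 1.88, 1.29 and 1.9 CPM, Dlx1 was higher by 6.50 ± 0.68 and Gad1 by 5.50 ± 0.77.

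These neuronal genes varied between inner ONL libraries. The summed pan-neuronal level was 6391, 7571, 5625 and 4025 CPM in replicates 1 to 4, against 1010 to 1856 CPM in the nerve. Whichever library was left out, 16 or 17 of the pan-neuronal genes were higher. For 15 of the 17 pan-neuronal genes and all 14 projection neuron genes the outer ONL level lay nearer the nerve on a log scale. That held for 1644 of all 3408 higher genes. The 3 projection neuron genes that were lower, Neurod1, Nhlh1 and Nhlh2, are basic helix-loop-helix genes also used by immature neurons elsewhere. Of 24 neuropeptide and neurotransmitter genes 13 were higher and 4 lower, with a median of 2.26, or 1.99 with 5 genes that were at the floor in 1 group set to their bound. Penk, the enkephalin precursor, fell by 5.42 ± 0.52, along with Cartpt, Npy1r and Cpe. Of 19 forebrain progenitor and astrocyte genes 10 were higher and 5 lower. The glutamate transporter genes Slc1a3 (335 ± 51.5 against 25 ± 20.6 CPM) and Slc1a2 (51.7 ± 22.4 against 2 ± 1.04 CPM) rose, and Gfap fell from 16 ± 7.01 to 0.976 ± 0.481 CPM. Olig1, Olig2, Emx2 and Tnc were the other members that fell, Emx2 not without nerve replicate 4 (-0.81), and the astrocyte marker Aldh1l1, at 3.42 ± 2.65 against 2.73 ± 0.713 CPM, did not pass the test.

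Among the 10 largest rises of genes with a mean of at least 50 CPM in 1 group were Egfem1, Rnase12, Zpld1, Mybpc1, Gabrg1, Chodl, Trh, Samd3 and Pdzrn4. Trh, the precursor of thyrotropin-releasing hormone, was at 122, 90.2, 97.4 and 67.3 CPM in the inner ONL and at 0, 2.73, 0 and 1.67 CPM in the nerve. Gabrg1, a subunit of the GABA-A receptor, was at 93.8, 81.7, 52.5 and 25.6 CPM against 0.0604, 2.12, 0.323 and 0 CPM. Mybpc1, a myosin-binding protein gene best known from muscle, rose by 7.43 ± 0.40, and Zpld1, which encodes a zona pellucida-domain protein, by 7.48 ± 0.37. In the outer ONL Mybpc1 was at 457 ± 95 CPM and Trh at 12.2 ± 10.1 CPM, while their inner ONL means were 732 ± 125 and 94.3 ± 22.7 CPM.

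Genes of the epithelium and of receptor neurons marked the mucosa side. All 20 tested genes of olfactory epithelium progenitors and supporting cells were lower in the inner ONL, with a median log2 difference of -6.71, or -5.94 with the 5 genes at the floor set to their bound. Krt5, the keratin of horizontal basal cells, had no count in any inner ONL library and 12.2 ± 7.48 CPM in the nerve, and was at least 60.5-fold lower, with 3 counts per library taken as the floor. Krt18, a keratin of simple epithelia, was at 148, 49.2, 42.9 and 65.3 CPM in the nerve and at 0, 0.0733, 0.151 and 0.234 CPM in the inner ONL. Cbr2, a carbonyl reductase gene (chr11:120729489-120732114, minus strand), fell by 10.59 ± 0.60, from 369.9 ± 178 CPM. Fezf1, a zinc finger gene of receptor neurons and their precursors, was at least 332-fold lower. For 19 of the 20 genes the outer ONL lay nearer the inner ONL, which held for 2493 of all 3773 lower genes.

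Receptor neuron genes were mostly lower, but not all. Of 22 genes 18 were lower and 3 higher, with a median of -2.93. Omp, the mature receptor neuron marker, was at 47.1, 43.7, 23.1 and 42 CPM in the nerve and at 6.48, 3.52, 3.4 and 3.8 CPM in the inner ONL. The olfactory channel subunit gene Cnga2 fell by 6.87 ± 0.68 and the odorant receptor chaperone genes Rtp1 and Rtp2 by 6.77 ± 0.90 and 6.91 ± 0.57. Kirrel3, an adhesion gene of receptor axons and also of other neurons, rose to 44.3 ± 15.1 CPM from 9.08 ± 1.42 CPM, and Ncam2 to 41.7 ± 3.3 from 11 ± 4.21 CPM. Cngb1, a subunit of the olfactory channel, was the third, at 9.3 ± 2.26 against 4.07 ± 0.394 CPM.

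Connective tissue genes were lower on the bulb side. Of 23 mesenchyme and fibroblast genes 21 were lower in the inner ONL and none was higher (median -3.23), of 18 cartilage genes 16 were lower and 1 higher (median -4.08), and of 13 bone genes 7 were lower and 1, Smpd3, higher (median -2.10, or -1.71 with 3 genes at the floor set to their bound). The defining bone genes Sp7, at 3.51 ± 1.73 against 6.42 ± 4.37 CPM, and Ibsp, at the floor in the inner ONL, did not pass the test. Col1a1, the main fibrillar collagen chain, was at 1034, 1634, 2038 and 1374 CPM in the nerve and at 69.4, 108, 70.8 and 117 CPM in the inner ONL. The proteoglycan genes Lum and Ogn fell by 3.14 ± 0.28 and 6.08 ± 0.43. Col2a1, the collagen of cartilage, was at 620.3, 3713, 1508 and 1533 CPM in the nerve, highest in replicate 2, and at 297, 205, 242 and 174 CPM in the inner ONL. Without nerve replicate 2, 15 of the 18 cartilage genes were lower. Acan, the cartilage proteoglycan aggrecan, fell by 7.17 ± 0.85. The single cartilage-list gene that rose, Sox5, is also on the list of genes shared by OECs and Schwann cells. The outer ONL lay nearer the nerve for 14 of the 21 mesenchyme genes, against 1280 of all 3773 lower genes.

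The 10 largest falls among genes with a mean of at least 50 CPM in 1 group and no overlap between groups were Fmo6, Inmt, Sult1e1, Cbr2, Matn1, Fezf1, Krt18, Fmod, Chad and Art4. Fmo6 and Sult1e1 were at the floor in the inner ONL, with Fmo6 at least 492-fold lower and Sult1e1, an oestrogen sulfotransferase gene, at least 404-fold lower. Chad, the gene of the cartilage matrix protein chondroadherin, was at least 249.5-fold lower, and Matn1, matrilin of cartilage, was at 38.2, 351, 87.6 and 107 CPM in the nerve and at 0.0635, 0.44, 0.302 and 0.117 CPM in the inner ONL. Inmt, an N-methyltransferase gene, fell by 11.57 ± 0.77 and the small proteoglycan gene Fmod by 9.25 ± 0.76.

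**Figure D2:**
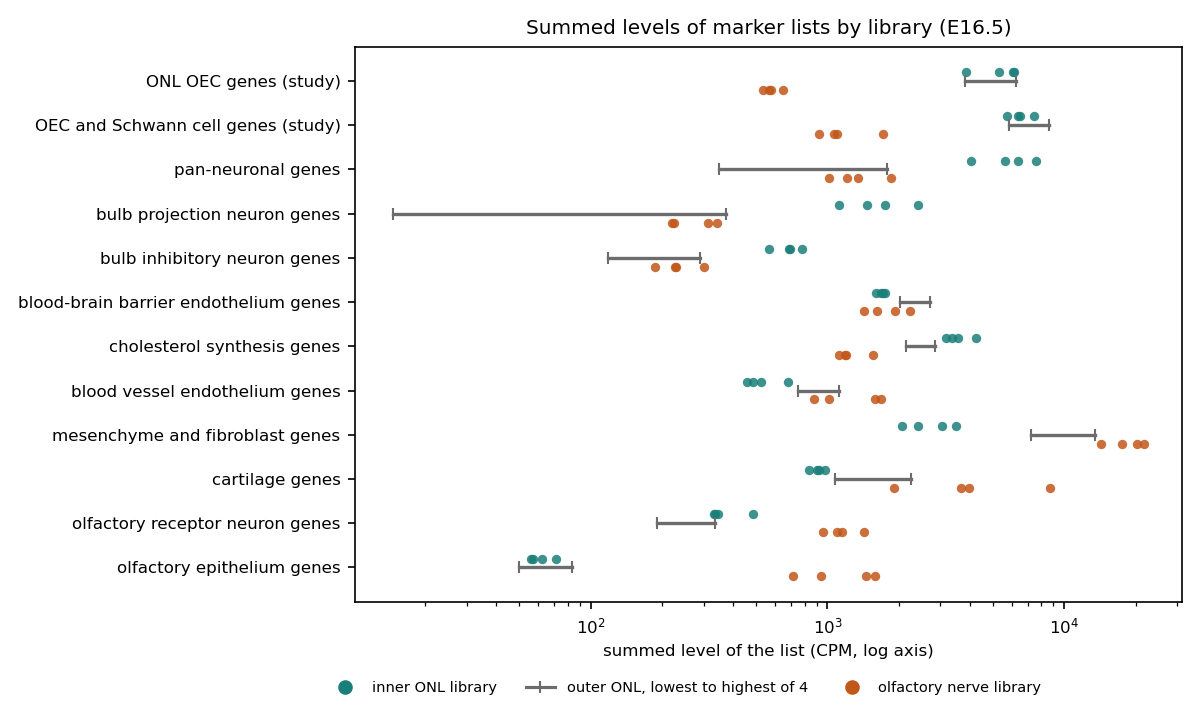
Summed CPM of the members of gene lists in each of the 4 inner ONL and 4 olfactory nerve libraries, on a log axis, with 1 point per library and a line for the range of the 4 outer ONL libraries. Pan-neuronal and bulb neuron sums are higher in every inner ONL library. Receptor neuron, epithelial and mesenchymal sums are higher in every nerve library, and nerve replicate 2 has the highest cartilage sum (8684 CPM).

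Of 38 matrix genes 25 were lower and 4 higher, Vtn, Lama1, Tnr and Lamc3, with a median of -1.63. Lamc3 did not pass without nerve replicate 1 or inner replicate 1 or 4 (1.61 to 1.93). Col14a1, a fibril-associated collagen, fell by 6.78 ± 0.56 and Lama2, a laminin chain of Schwann cell and muscle basement membranes, by 3.80 ± 0.34, whereas Lama1, a laminin chain of the pial surface, rose from 32.2 ± 14.9 to 73.9 ± 7.99 CPM. Tnr, the brain tenascin, was at 12.6 ± 5.57 CPM against 0.592 ± 0.364 CPM, and Tnc, another tenascin, fell by 2.59 ± 0.36. Of 15 meningeal genes 6 were higher and 8 lower. Zic1 and Zic4, zinc finger genes of meninges and of brain, rose by 2.99 ± 0.62 and 4.23 ± 0.67, and Foxc1 and Aldh1a2, of meningeal and other mesenchyme, fell by 3.09 ± 0.41 and 3.52 ± 0.39.

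Genes on the vessel lists split. Of 20 general endothelial genes 17 were lower in the inner ONL and none was higher, with a median of -1.29, and of 15 genes of blood-brain barrier endothelium 11 were higher and 2 lower, with a median of 2.92. Pecam1, an adhesion gene of all endothelium, was at 206, 79.5, 240.3 and 109 CPM in the nerve and at 33.3, 43.8, 31.1 and 59.1 CPM in the inner ONL. Mfsd2a, a lipid transporter of barrier endothelium, was at 109.8, 84.3, 105 and 76 CPM in the inner ONL and at 4.65, 11, 6.78 and 5.58 CPM in the nerve, a difference of 3.74 ± 0.26 (edgeR adjusted p = 1.15e-08). Slco1c1, a thyroid hormone transporter, rose by 3.64 ± 0.38. Lef1 and Apcdd1, which respond to Wnt signals in many cell types, rose by 2.91 ± 0.21 and 3.26 ± 0.31. The glucose transporter gene Slc2a1, at 0.49 ± 0.14, was less changed, and the transporter gene Abcg2 and Itm2a fell by 0.80 ± 0.18 and 0.95 ± 0.17. The summed level of all 16 barrier genes listed overlapped between groups, at 1596 to 1755 CPM in the inner ONL and 1423 to 2232 CPM in the nerve. For all 11 of the higher barrier genes the outer ONL lay nearer the inner ONL, which held for 1764 of all 3408 higher genes. Which cells carried the barrier-list genes was not tested.

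Of 15 mural cell genes 12 were lower and 1, Vtn, higher. Acta2, smooth muscle actin, was at 2008, 198, 1608 and 806 CPM in the nerve, lowest in replicate 2, and at 0.508, 5.21, 1.74 and 13.1 CPM in the inner ONL, whereas the pericyte gene Rgs5 fell by 1.40 ± 0.27. Of 18 macrophage and microglia genes 14 were lower and 2 higher. The mannose receptor gene Mrc1, of tissue macrophages, fell by 3.36 ± 0.37 and Csf1r by 1.35 ± 0.28, while Sall1, a gene of microglia and of other cells, rose from 4.71 ± 1.93 to 52.7 ± 22.7 CPM. P2ry12, a microglial receptor, was at 18 ± 4.31 against 10 ± 3.52 CPM, higher with overlapping groups, and did not pass without nerve replicate 3 or 4 or inner replicate 2 or 3 (0.645 to 0.83). Of 9 granulocyte genes 5 were lower, S100a8, S100a9, Ngp, Camp and Lcn2, and the median was -4.01, or -2.39 with 3 genes at the floor set to their bound. Of 11 red cell genes 4 were lower, among them Hba-a1, Hba-a2 and Hbb-bs, though reads of the globin copies are hard to assign to one gene. The summed red cell level was 9687 CPM in nerve replicate 1 and 2674 to 3541 in the other nerve libraries, and no gene of the list differed without that library or without inner replicate 4, while 2 were lower without inner replicate 1 or 2 and 7 without nerve replicate 2.

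**Figure D3:**
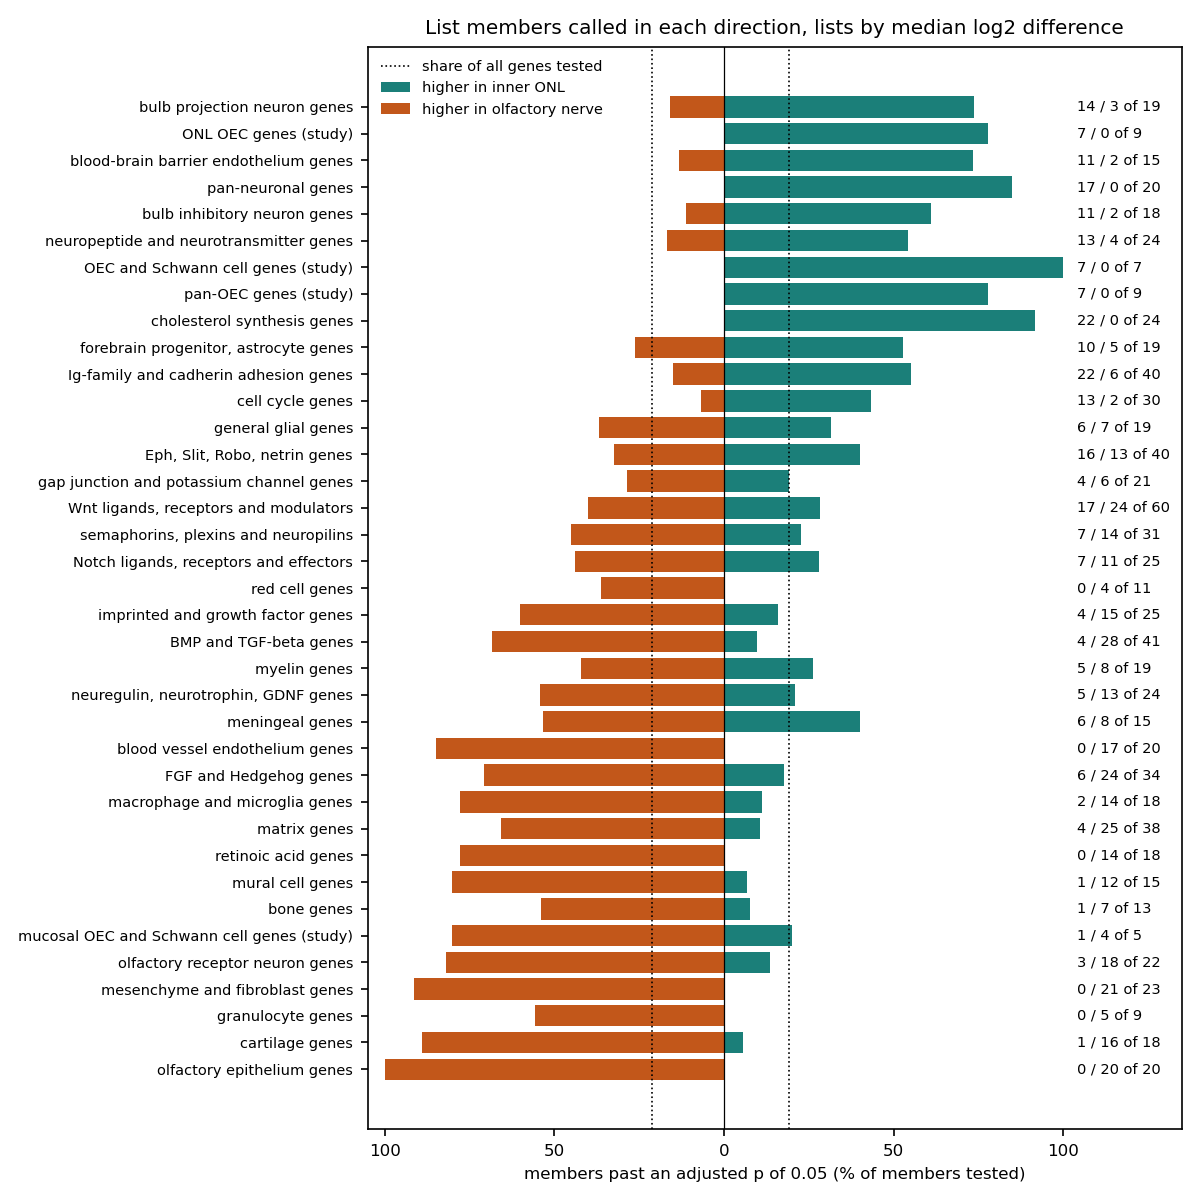
Genes that were higher in the inner ONL or in the olfactory nerve, as a percent of the tested members of each of 37 lists, ordered by median log2 difference. Dotted lines mark the shares among all genes tested (19.1% higher, 21.2% lower), and the numbers at the right give higher, lower and tested members. Epithelial genes (20 of 20) and mesenchymal genes (21 of 23) are lower, and cholesterol synthesis genes (22 of 24) and pan-neuronal genes (17 of 20) are higher.

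Wnt signals are passed by secreted ligands to Frizzled receptors and are held back by secreted and intracellular antagonists. Of 60 Wnt genes 17 were higher in the inner ONL and 24 lower, with a median of -0.44. Among secreted antagonists, Sfrp2 was at 244, 157, 278 and 223 CPM in the nerve and at 1.14, 1.32, 2.95 and 2.86 CPM in the inner ONL, Dkk2 fell by 5.94 ± 0.60 and Frzb rose as described above. Nkd1, an intracellular antagonist that Wnt signalling itself induces, was at 161, 81.7, 160.0 and 147 CPM in the inner ONL and at 12.9, 14.8, 18.5 and 17 CPM in the nerve. Axin2, the widely used Wnt target, was at 8.64, 7.7, 12.5 and 12.6 CPM against 7.07, 5.21, 8.13 and 6.64 CPM, overlapping between groups and just past the threshold (edgeR adjusted p = 0.0465). It did not pass without nerve replicate 1, 2 or 4 or inner replicate 3 or 4 (0.505 to 0.64), nor with total count or upper quartile scaling (0.52 and 0.57). Axin2 also did not pass without a filter beyond 1 count, with a floor of 5 CPM or with only the 8 libraries (0.64, 0.56 and 0.59).

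Notch receptors are activated by ligands on neighbouring cells and act through Rbpj on Hes and Hey repressor genes. Of 25 Notch genes 7 were higher and 11 lower, with a median of -0.61, and the repressors split. Hey2 was at 265, 301, 292 and 306 CPM in the inner ONL and at 83.6, 114, 80 and 56.9 CPM in the nerve. It was higher together with Hes5, whose levels are given above, and Heyl (2.25 ± 0.22), and Hes1 and Hey1 (29.5 ± 1.71 against 102 ± 22.8 CPM) were lower. Hes6 was also lower (37.9 ± 3.65 against 149 ± 60.8 CPM). By in situ hybridization the study placed Hes6 in the olfactory epithelium and not in OECs. The ligand gene Jag1 fell by 1.73 ± 0.34 and Mfng, a modifier of Notch receptors, by 2.59 ± 0.27, while Dner, a Notch ligand of neurons, rose by 2.55 ± 0.54. The 250 bases before the start of Hes5 and Hey2, which both rose, are shown. Those of Hes1 and Hey1 are not given, so the motif is not compared between higher and lower repressors. The sequences are from RefSeq on GRCm38.p6, 5′ to 3′ on the strand of the gene, and capitals mark TGGGAA, the core of the site bound by Rbpj, searched on both strands.
Hes5, chr4:154960673-154960922, plus strand: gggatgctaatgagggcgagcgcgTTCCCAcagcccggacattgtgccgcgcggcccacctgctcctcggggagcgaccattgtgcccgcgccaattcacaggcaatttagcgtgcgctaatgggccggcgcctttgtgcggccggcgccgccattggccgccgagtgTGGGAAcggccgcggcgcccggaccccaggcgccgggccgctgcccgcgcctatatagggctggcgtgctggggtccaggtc
Hey2, chr10:30842784-30843033, minus strand: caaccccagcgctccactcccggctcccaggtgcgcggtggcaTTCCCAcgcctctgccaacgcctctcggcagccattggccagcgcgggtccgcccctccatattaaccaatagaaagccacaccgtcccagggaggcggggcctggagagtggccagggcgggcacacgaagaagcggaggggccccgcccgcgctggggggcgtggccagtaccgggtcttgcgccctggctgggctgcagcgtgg
Hes5 held 2 matches, starting 226 and 82 bases before the start, and Hey2 held 1, at 207 bases. The motif is short, and 24.1% of the 27025 genes with such a promoter and 7 of the 23 Notch genes with one (30.4%) held it, so a match is only a description of these letters.

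Signals that pattern mesenchyme and epithelium were mostly lower. Of 41 BMP and TGF-beta genes 28 were lower and 4, Bmp7, Acvr2a, Acvr1b and Id2, higher (median -1.19), of 34 FGF and Hedgehog genes 24 were lower and 6 higher (median -1.31), and of 18 retinoic acid genes 14 were lower and none was higher (median -1.68). Acvr1b did not pass when any 1 of 6 libraries was left out, all but nerve replicate 4 and inner replicate 1 (0.54 to 0.75), nor Id2 without inner replicate 2 (0.63). Acvr1b also failed with total count or upper quartile scaling (0.60 and 0.65). It failed too without a filter beyond 1 count, with a floor of 5 CPM or with only the 8 libraries (0.65 to 0.73). Bmp4 was at 81.3, 37.1, 84.4 and 55 CPM in the nerve and at 2.29, 4.11, 2.34 and 6.72 CPM in the inner ONL, and Bmp3 fell by 5.25 ± 0.52. Bmp7, another ligand, went up instead, at 224, 190.0, 251 and 259 CPM in the inner ONL against 41.6, 43.9, 54.3 and 48.5 CPM. The BMP target Id1 fell by 2.20 ± 0.17. Fgf9 rose by 2.35 ± 0.27, Fgf7, a mesenchymal ligand for epithelial receptors, fell by 5.90 ± 0.66, and the Hedgehog target Gli1 by 4.41 ± 0.40. Aldh1a2, which makes retinoic acid, and Crabp1, which binds it, fell to 41.2 ± 24.7 and 4.58 ± 1.27 CPM from 472 ± 149.8 and 111 ± 39.1 CPM, and Cyp26a1, which degrades it, was at least 77.4-fold lower.

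**Figure D4:**
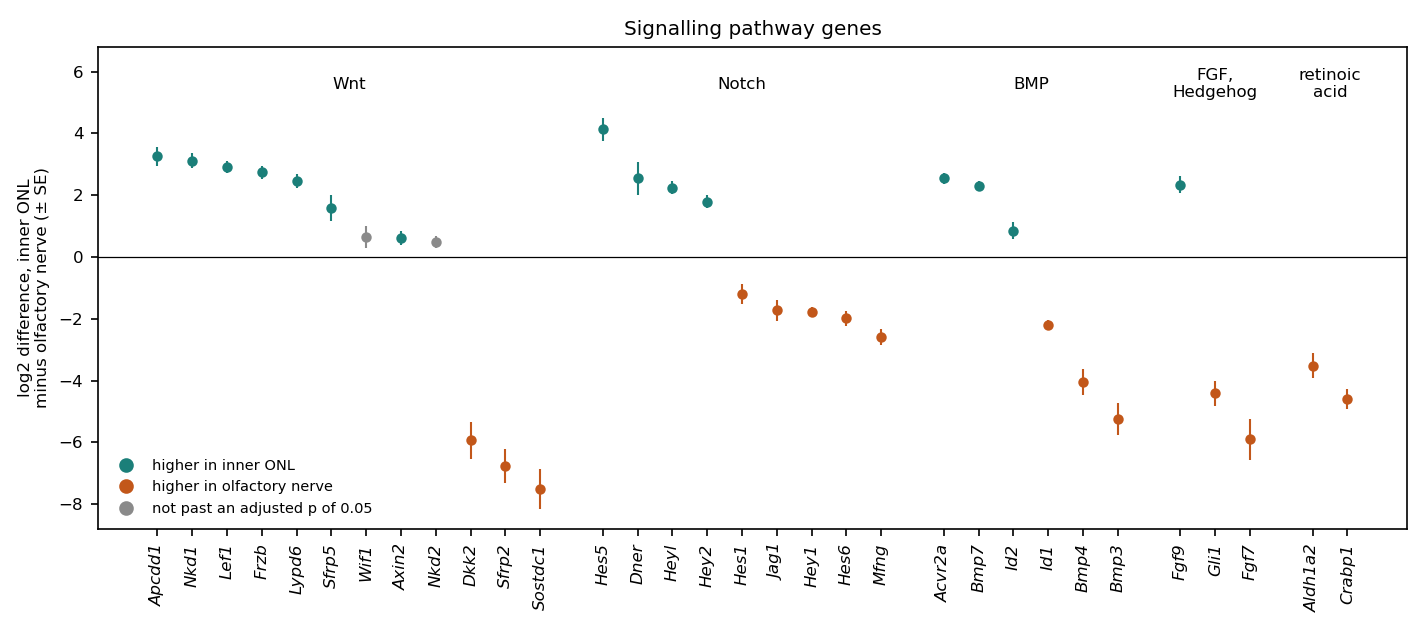
Log2 difference of inner ONL minus olfactory nerve with its SE for genes of 5 signalling lists that the text describes, with 1 point per gene and grey for genes that did not pass the test. The retinoic acid genes lie below 0, and genes of each of the other lists lie on both sides.

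Guidance and adhesion genes split as well. Of 31 semaphorin, plexin and neuropilin genes 7 were higher and 14 lower, of 40 Eph, ephrin, Slit, Robo and netrin genes 16 were higher and 13 lower, and of 40 adhesion genes 22 were higher and 6 lower (median 1.04). Among all genes tested 19.1% were higher and 21.2% lower, and the share of semaphorin-list genes that were higher lies near the first. Sema3a, a repellent of receptor axons, was at 84.4, 71.2, 137 and 126 CPM in the nerve and at 16.6, 29.4, 8.39 and 25.6 CPM in the inner ONL, and Sema3c fell by 4.24 ± 0.53. Nrp1, a receptor gene for class 3 semaphorins, fell by 1.14 ± 0.24. Sema6a, a transmembrane semaphorin of the pan-OEC list, rose by 1.39 ± 0.17. The receptor gene Ephb1 rose by 3.33 ± 0.23 and its ligand gene Efnb2 by 1.98 ± 0.21, whereas the ligand genes Efna1 and Slit2 fell by 2.21 ± 0.19 and 4.34 ± 0.39. The contactin gene Cntn1 rose to 205 ± 51.3 CPM from 29.3 ± 7.09 CPM and Cntn3 to 125 ± 24.8 CPM from 5.05 ± 5.01 CPM. Of 24 neuregulin, neurotrophin and GDNF family genes 13 were lower and 5 higher, Gfra1, Erbb3, Ntrk2, Erbb4 and Nrg3. The share that was higher lies near the 19.1% of all genes tested. Ntrk2 did not pass without nerve replicate 2 or 4 or inner replicate 1 (0.39 to 0.43), and 3 genes were higher without nerve replicate 4 or inner replicate 1. Gfra1, a GDNF receptor gene, rose by 1.61 ± 0.25 and its relative Gfra2 fell by 3.96 ± 0.36.

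Cholesterol is made from acetyl-CoA by enzymes whose genes are induced together by SREBP transcription factors when sterols are low. Of 24 genes of the pathway 22 were higher in the inner ONL and none was lower, with a median log2 difference of 1.48. Hmgcs1, which makes HMG-CoA, was at 989.7, 900.1, 735 and 741 CPM in the inner ONL and at 172, 222, 172 and 168 CPM in the nerve, with nerve replicate 2 the highest of its group, a difference of 2.20 ± 0.17 (edgeR adjusted p = 2.82e-08). The squalene epoxidase gene Sqle was at 485, 336, 349 and 322 CPM against 109, 139, 103 and 114 CPM, higher by 1.68 ± 0.16. Insig1, a feedback regulator that SREBP induces, rose by 1.94 ± 0.21 and Tm7sf2, a sterol reductase gene, by 1.80 ± 0.22. In the outer ONL Hmgcs1 was at 517 ± 99.6 CPM, between the other tissues, and 19 of the 22 genes lay nearer the inner ONL there, against 1764 of all 3408 higher genes. Fdps, which has near-identical copies, and Ebp did not pass the test, though Fdps did without nerve replicate 2 (0.97). Relative to Sox10 no gene of the list was higher and 14 of 24 were lower, against 87.9% of all genes on that scale. Hmgcs1 was there at 0.16 ± 0.27 and did not pass the test, and with the geometric mean of Sox10, Erbb3 and S100b in place of Sox10 it was higher by 1.82. The summed level was 3180 to 4231 CPM in the inner ONL and 1117 to 1562 CPM in the nerve.

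The 250 bases before the start of Hmgcs1 are shown because its difference was the largest of the list. The sequence is from RefSeq on GRCm38.p6, 5′ to 3′ on the strand of the gene, and capitals mark TCACNNCAC, the core of a sterol regulatory element, searched on both strands.
Hmgcs1, chr13:119690101-119690350, plus strand: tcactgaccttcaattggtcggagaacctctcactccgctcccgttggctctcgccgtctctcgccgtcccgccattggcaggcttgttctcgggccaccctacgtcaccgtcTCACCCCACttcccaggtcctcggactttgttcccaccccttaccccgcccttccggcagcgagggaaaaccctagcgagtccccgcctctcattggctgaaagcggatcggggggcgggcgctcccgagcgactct
The match starts 137 bases before the start. Of the 27025 genes with such a promoter 3.63% held the motif, and 4 of the 16 cholesterol genes with one did (25%), which describes these letters only.

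**Figure D5:**
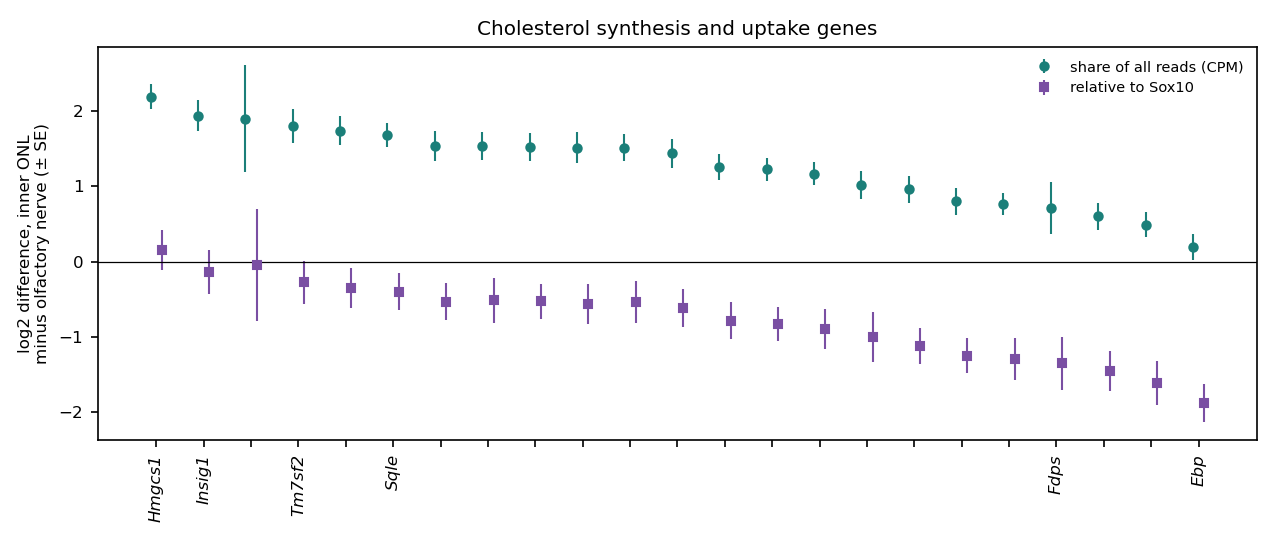
Log2 difference of inner ONL minus olfactory nerve with its SE for cholesterol genes, with names only for those the text describes, as a share of all counts (circles) and relative to Sox10 (squares). All circles lie above 0, with Fdps and Ebp not past the threshold, and all squares but that of Hmgcs1 lie below 0.

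Growth and proliferation genes did not share a direction. Of 25 imprinted and growth factor genes 4, Igf1, Nnat, Snrpn and Ndn, were higher and 15 lower (median -1.14), of 30 cell cycle genes 13 were higher and 2 lower (median 0.37), and of 21 gap junction and potassium channel genes 4 were higher, Gjb2, Gjd2 and Kcna2 among them, and 6 lower. Among all genes tested 19.1% were higher and 21.2% lower. The shares of imprinted-list and of gap junction and channel genes that were higher lie near the first. Igf1 was at 1629, 1570.4, 1626 and 1644 CPM in the inner ONL and at 138, 241, 174 and 174 CPM in the nerve. Igf2, another insulin-like growth factor gene, went the other way, at 36, 72, 72.9 and 125 CPM against 1011, 1379, 957 and 935 CPM, with nerve replicate 2 the highest. The imprinted RNA gene H19 fell by 4.99 ± 0.54 and the imprinted gene Nnat rose by 3.50 ± 0.25. The proliferation gene Mki67 was higher by 0.50 ± 0.19 but did not pass without nerve replicate 1, 2 or 4 or inner replicate 2, 3 or 4 (0.41 to 0.50), nor with total count or upper quartile scaling, a floor of 5 CPM, or with only the 8 libraries or all 31 in an unblocked fit (0.41 to 0.54), and 8 of the cell cycle genes were higher without nerve replicate 4 or inner replicate 4. Replication licensing genes Mcm3 and Mcm6 rose by 0.89 ± 0.16 and 0.85 ± 0.21, and the cyclin genes Ccnd1 and Ccnd3 fell by 1.46 ± 0.16 and 1.90 ± 0.22. The potassium channel gene Kcnj10 fell by 5.07 ± 0.47, and the connexin gene Gja1, at 498 ± 86.4 against 600.1 ± 78.5 CPM, did not pass the test.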

How the data were processed

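RNA-seq was analysed from 15 E16.5 libraries (4 inner ONL, 4 outer ONL, 4 olfactory nerve, 3 trigeminal nerve), with 8 in the comparison. The authors deposited raw counts per gene for the series. Per the study's methods and the submitters' processing notes, reads were aligned with TopHat2 2.1.0 and counted with HTSeq on mm10 with Ensembl annotation. Whether counting used strand is not given in the sources used here, so a gene and an overlapping antisense gene cannot be told apart.

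From these counts 1 blank line was dropped, leaving 47729 genes, of which 31320 had a count at E16.5 and 17800 passed filterByExpr. Gene names and positions came from GENCODE vM21 (GRCm38). Normalisation was by TMM, and edgeR 4.0.16 (R 4.3.3, limma 3.58.1) fitted 1 mean per tissue with a quasi-likelihood test and Benjamini-Hochberg adjustment at 0.05. A second fit set each library's size by its Sox10 count. The SE was the absolute log2 difference divided by the square root of F. DESeq2 1.42.0, other scalings, filters and sample sets, a replicate block and leaving out each library were alternatives, and the counts of list members under them were added after the data were seen. The scripts were tested on simulated data. The floor for a fold was 3 counts per library, and a gene at the floor in 1 group was given only a bound.

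Named genes were the 10 largest rises and falls with at least 50 CPM and no overlap, up to 3 genes per direction from each of 37 lists with at least 10 CPM, the lists' 2 defining markers, all genes of the study's 4 glial lists, and Xist and Ddx3y. Some genes named by this rule are not reported here. Drp2, Pou3f1, Dlx6, Emx2, Cngb1, S100a9, Ngp, Camp, Lcn2, Acvr1b, Lamc3, Nrg3, Erbb4, Ndn, Cpe, Gjd2, Fdps and Ebp were named after their values were seen. The lists and the comparison were chosen with earlier results of these data known. The outer ONL was called nearer to a tissue on the log2 scale of mean CPM plus 0.5. Figures were drawn with matplotlib 3.10.9 in Python 3.11.15. Equally numbered libraries were not treated as pairs in the main fit, and fits with a replicate block are given below.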

Additional observations from a re-analysis of the deposited data

Results flagged for a closer look

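Within a group of 4 libraries, a value was singled out when the highest or lowest library lay far from the other 3, its gap to the nearest, as a share of the group's whole range, being over Dixon's 95% critical value. Of 422 groups examined, over 179 genes described above and 37 list sums, 34 had such a library, and chance alone gives about 1 in 20. The values below are CPM, with the range of the other 3 libraries in brackets. Olfactory nerve replicate 2 was the highest for Gabrg1 at 2.12 (0 to 0.323), Hmgcs1 at 222 (168 to 172), Igf2 at 1379 (935 to 1011), Ngfr at 15.3 (8.71 to 9.13), Nts at 35.4 (1.61 to 6.92), Ptn at 2516 (1269 to 1391), S100b at 145 (73.6 to 82.2), Sp7 at 12.9 (3.42 to 5.02), Ugt8a at 9.09 (4.97 to 5.5) and the summed pan-OEC genes at 4078 (2708 to 2789). Olfactory nerve replicate 1 was the highest for Hba-a1 at 3726 (1082 to 1248), Hbb-bs at 3146 (824 to 1098) and the summed red cell genes at 9687 (2674 to 3541), and the lowest for Bmp3 at 74.2 (94.1 to 98). Olfactory nerve replicate 3 was the highest for Ibsp at 0.71 (0). Olfactory nerve replicate 4 was the highest for Crabp1 at 169 (85 to 97.1) and Rtp2 at 62 (24.3 to 30.3). Inner ONL replicate 1 was the highest for Omp at 6.48 (3.4 to 3.8) and Sqle at 485 (322 to 349), and the lowest for Crabp1 at 2.67 (5.14 to 5.29) and Mki67 at 152 (260.4 to 278). Inner ONL replicate 2 was the highest for Art4 at 0.367 (0 to 0.0584), Fgf9 at 51.8 (30.2 to 33.6), Nrp1 at 238 (129 to 148), Slc1a2 at 84.9 (35.9 to 44.2), Sostdc1 at 1.69 (0.0756 to 0.351) and the summed olfactory receptor neuron genes at 482 (331 to 345), and the lowest for Gjb1 at 7.99 (13.6 to 14.6). Inner ONL replicate 3 was the highest for Fabp7 at 20490 (15460 to 16244), Lcn2 at 0.378 (0 to 0.0635), the summed general glial genes at 23050 (18120 to 18360) and the summed granulocyte genes at 6.28 (3.45 to 3.81). Inner ONL replicate 4 was the highest for Rtp1 at 1.4 (0 to 0.147), and the lowest for the summed pan-OEC genes at 9167 (10170 to 10370). Olfactory nerve replicate 2 held 10 of these values, among them the glial genes Ptn, S100b and Ngfr, and its cartilage sum was also the highest of its group (8684 CPM). What set that library apart was not tested.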

How the results depend on the processing

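Between 5449 and 7428 genes differed under the other scalings, floors on low counts and fits tried, and no gene that differed in the main comparison changed sign. Total count scaling moved the median log2 difference of all genes from -0.02 to -0.12 and gave 2872 higher and 4238 lower genes. DESeq2 called 7428 genes, the 8 libraries fitted alone 6744 and all 31 libraries 5975. A further requirement of an absolute log2 difference of 1 left 4815 genes, 1955 higher and 2860 lower. Leaving out 1 library gave 6365 to 6698 genes, 3015 to 3225 higher and 3315 to 3535 lower. Relative to Sox10 it gave 15578 to 16295 genes, 400 to 522 higher and 15056 to 15895 lower, and setting genes against the geometric mean of Sox10, Erbb3 and S100b instead gave 7401 genes, 1718 higher and 5683 lower, with 2424 of the 16152 genes that differed relative to Sox10 turned in sign. S100b was itself lower in the inner ONL, so that scale differs by construction. On it Nkd2 was at 0.024 in place of -1.70, and Hmgcs1 and Lypd6 were higher. With a replicate block 6396 genes differed among the 8 libraries and 7235 among all E16.5 libraries, and the Sox10-relative comparison gave 14764 (468 higher, 14296 lower), where Frzb and Ptprz1 did not pass. With the block Axin2 and Acvr1b (either set), Dlx5 (all E16.5 libraries) and Erbb3 (the 8 libraries) did not pass, and Nkd2 did (0.43, all E16.5 libraries). The deviations of equally numbered libraries correlated at 0.19, 0.0314, 0.00398 and 0.0638 over 10532 genes, 3 of the correlations under 0.1. Only inner ONL replicates 1 and 4 correlated best with their own number, and the main fit used no block. Low correlations cannot exclude shared embryos, since the neighbouring tissue in each piece also varied. The sex-linked genes described below matched by number, so the block fits remain a needed alternative. Signs turned in 3 other values, none of them past the threshold in either fit. With 1 library left out, Aldh1l1 ran from -0.29 (without inner ONL replicate 2) to 0.63, Hmgcs1 relative to Sox10 from -0.11 (without the same library) to 0.31, and Ibsp, with few counts, from -4.70 to 2.58 (without olfactory nerve replicate 3). With all 31 libraries no granulocyte or red cell gene was lower and 3 meningeal genes were higher. S100b, Mal, Csf1r, Rgs5, Gjb2, Olig1, Zic1, Cngb1, Itm2a and Slc2a1 did not pass in that fit either, though each kept its sign. Nor did Id2, Ntrk2, P2ry12, Erbb3, Dlx5, Axin2, Acvr1b, Lamc3 and Mki67. With a floor of 5 CPM in 4 libraries 11 Wnt genes were higher in place of 17. Causes of the other changes were not tested. Genes near the floor of 3 counts per library allow only bounds on their fold change.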

Other observations

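Odorant receptor genes, which were on none of the lists, followed the receptor neurons for the most part. Of the 1277 counted, 71 passed the filter, and of these 63 were lower in the inner ONL and 3 higher. Their summed level was 19.4 to 21.4 CPM in the inner ONL libraries, 24.6 to 39.2 CPM in the outer ONL and 281 to 597 CPM in the olfactory nerve. The 3 that were higher, named after their values were seen, lie near each other on chromosome 2. Olfr32 was at 10.8 ± 1.56 CPM in the inner ONL and 1.96 ± 0.961 CPM in the nerve (mean ± SD, n = 4 per group), and Olfr1270 and Olfr142 were at 1.24 ± 0.51 and 0.849 ± 0.27 CPM in the inner ONL. In the outer ONL Olfr32 was at 11.9 ± 3.5 CPM. Receptor genes have close copies, so the assignment of these reads to single genes is uncertain.

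The female-specific RNA Xist was at 196 CPM in inner ONL replicate 3 and at 171 CPM in olfactory nerve replicate 3, with 0 or 1 count in each of the other 6 libraries. The Y-linked gene Ddx3y was at 0 in those same 2 libraries and between 62.3 and 83 CPM in the rest. Equally numbered libraries thus matched in sex, though a match of sex does not settle whether they shared an embryo.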
